A study of Mus musculus with 6 samples.

Results

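The genes described here handle phospholipids of the mitochondrial inner membrane: 10 genes for PRELI-type lipid transfer proteins, their partner, the lipid transfer protein STARD7 and enzymes that make cardiolipin and phosphatidylethanolamine. They were chosen by symbol for their known roles (Prelid1, Prelid2, Prelid3a, Prelid3b, Triap1, Stard7, Tamm41, Pgs1, Crls1 and Pisd). Earlier results of these data were known when the choice was made. All 10 have a row in the authors' deposited table, which lists 53136 gene identifiers. The cells were wild-type (WT) mouse embryonic fibroblasts (MEFs) made immortal with SV40 and kept for 16 h at 21% oxygen (normoxia, 3 samples) or 0.5% oxygen (hypoxia, 3 samples). SV40 large T antigen binds the tumour suppressor p53, which bears on these cells as a model because Triap1 is a known p53 target. The part of p53 in the values of Triap1 was not tested. The series comes from a study of mTORC1, lipid signalling and the inner membrane protease YME1L.

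Phosphatidic acid made in the endoplasmic reticulum has to cross the intermembrane space before it can become cardiolipin, the signature phospholipid of mitochondria. PRELID1, held stable by the small protein TRIAP1, carries phosphatidic acid across this space, and PRELID3B, with the same partner, carries phosphatidylserine. In the inner membrane TAMM41 turns phosphatidic acid into CDP-diacylglycerol, PGS1 and the phosphatase PTPMT1 make phosphatidylglycerol, and CRLS1 joins it with a further CDP-diacylglycerol to give cardiolipin. PISD decarboxylates phosphatidylserine to phosphatidylethanolamine, and STARD7 brings phosphatidylcholine. YME1L degrades PRELID1, and the protease PARL cleaves STARD7 during its import.

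Promoter sequence is shown for the called genes that a RefSeq table of GRCm38.p6 covers, because these include genes with opposite changes in hypoxia: Prelid1 and Stard7 rose, Prelid3b and Crls1 fell. Each sequence runs 5′ to 3′ on the gene's strand. Capitals mark ACGTG or GCGTG on either strand, the core letters of the hypoxia response element. In Prelid1 and Crls1 the core is part of CACGTG, an E-box, which reads the same on both strands and holds ACGTG on each. For Prelid1 (chr13:55321961-55321990, plus strand) only 30 bases are shown, since the window lies in annotated exons. The Crls1 stretch is chr2:132846416-132846665, before the first of its 2 RefSeq start sites, and that of Stard7 chr2:127269979-127270217, both on the plus strand. The Prelid3b stretch is chr2:174473082-174473191 on the minus strand.
Prelid1: gggacgcccggtCACGTGacgcgggcgccg
Crls1: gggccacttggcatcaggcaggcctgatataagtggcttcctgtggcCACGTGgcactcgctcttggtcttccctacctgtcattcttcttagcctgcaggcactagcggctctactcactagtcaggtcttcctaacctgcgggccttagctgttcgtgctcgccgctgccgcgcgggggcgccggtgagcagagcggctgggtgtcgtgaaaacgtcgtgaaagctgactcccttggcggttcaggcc
Stard7: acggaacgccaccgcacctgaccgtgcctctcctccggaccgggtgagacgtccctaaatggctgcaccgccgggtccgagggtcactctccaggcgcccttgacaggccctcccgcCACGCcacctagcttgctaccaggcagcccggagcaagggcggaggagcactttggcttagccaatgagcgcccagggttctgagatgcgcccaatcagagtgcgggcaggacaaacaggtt
Prelid3b: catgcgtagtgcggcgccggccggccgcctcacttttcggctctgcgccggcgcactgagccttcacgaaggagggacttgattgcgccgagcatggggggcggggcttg

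The E-box starts 82 bases before the RefSeq start site of Prelid1 and 203 bases before that of Crls1. It thus stands in 1 gene that rose and in 1 that fell. The RefSeq start site of Prelid1 (55322055) lies within the GENCODE span of the gene, which starts at 55320500. Its E-box is in an annotated exon. CACGTG is present in 7.15% of the 32851 promoters of the table, each of 300 bases (250 before the start site and 50 after it). The 7 covered genes have 9 promoters there. A core of either spelling, ACGTG or GCGTG, is in 43.8% of all promoters and in 5 of these 9. The 5 are 1 each of Crls1, Pisd, Prelid1, Stard7 and Triap1. The stretch of Prelid3b holds neither, and nor does the rest of its promoter window. CCGGAAG is a binding sequence of ETS factors such as GABP. It is in 4 of the 9 promoters (Pgs1, Pisd, Prelid1 and Prelid3b) and in 8.86% of all promoters. The matches of Pgs1, Prelid1 and Prelid3b lie in annotated exons. The windows that hold it are 63.3% to 72.3% G or C, against a median of 52.7% over all promoters. The part of base content in such shares was not tested. CCAAT is in 2 of the 9 promoters (Pisd and Stard7) and in 37.4% of all. The NRF1 motif was found in none of the 7 genes and in 0.971% of all promoters. All motifs were searched on both strands. These matches describe letters in a window, and binding of any factor was not measured.

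Every expression value is FPKM, fragments scaled to transcript length and library size, which allows levels to be set side by side between genes. The authors combined their 3 replicates into 1 FPKM per condition, so the values carry no SD, the depth of the libraries is unknown, and replicates could not be tested against each other. The verbs rose and fell are used for genes with a Cuffdiff q below 0.05 in the authors' deposited table, here named called genes, and the others are given by their values. The smallest q in the authors' deposited table, 0.000139, is shared by 5148 tested measurements, among them 6 of the 10 genes, so it does not rank them. All 6 hypoxia check genes fixed for this purpose (Vegfa, Ldha, Pdk1, Bnip3, Car9 and Egln3) rose. The 8 fibroblast markers ranged from 3.11 to 883 FPKM in normoxia. Of these, Fn1 (448 to 649 FPKM) and Vim (883 to 2249 FPKM) rose, Col1a2, Col3a1, Pdgfrb and Thy1 fell (Col3a1 from 328 to 182 FPKM), and Col1a1 and Pdgfra were not called. All 3 endothelial markers and the leukocyte markers Ptprc and Csf1r stayed below 0.1 FPKM in both conditions. Of the other leukocyte markers, Adgre1 is listed at 0 in both conditions, which may be a failed estimate, and Cd68 rose from 1.32 to 2.27 FPKM. All 4 epithelial markers were present and summed to 353 FPKM in normoxia and 462 FPKM in hypoxia, mostly from Krt18. Krt18 rose from 313 to 443 FPKM, Krt8 fell from 28.3 to 10.1 FPKM, Cdh1 fell from 5.93 to 3.76 FPKM, and Epcam was at 5.97 and 5.22 FPKM without a call. Of the 3 skeletal muscle markers, Myod1 is listed at 0 in both conditions, Myog stayed below 0.1 FPKM, and Des was at 11.0 and 9.46 FPKM. The part of the fibroblast, epithelial and other markers in the results below was not tested.

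Of the 10 genes, 7 were called (4 higher, 3 lower) and 3 were not. Of the 14575 measurements tested in the authors' deposited table, 57.9% are called, 28.9% higher and 29.0% lower, so the number called among these genes is near the background. At a change of at least 2-fold, 2 genes rose (background 9.03%) and 1 fell (background 9.87%). The median log2 ratio of FPKM + 1 was 0.011 over the 10 genes, all of which had a mean of at least 1 FPKM. Over the 12127 tested measurements at that level it was 0.0027. The genes lay on both sides of no change, as the plot of group FPKM shows.

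**Figure D1:**
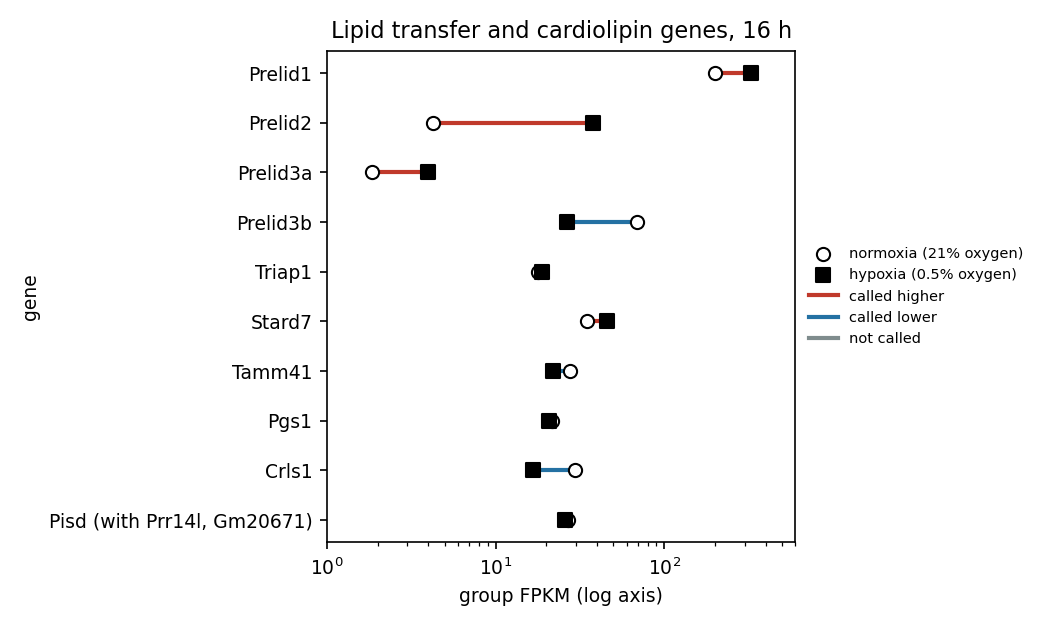
Group FPKM on a log axis for each of the 10 genes in normoxia (open circles) and hypoxia (filled squares), joined by a line coloured by the authors' call. Prelid2 spans the widest gap, from 4.24 to 37.7 FPKM, Prelid3b and Crls1 move to the left, and the 2 markers of Triap1, Pgs1 and Pisd nearly coincide.

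Of the 4 PRELI genes, 3 rose in hypoxia and Prelid3b fell. Prelid1, whose product carries phosphatidic acid, measured 199 FPKM at 21% oxygen and 328 FPKM at 0.5% oxygen, a 1.65-fold rise. It was the most abundant of the 10 genes in both conditions, and in hypoxia only 1.74% of tested measurements had a higher FPKM. The absolute gain of Prelid1, 129 FPKM, exceeded the level of any other gene of the group in either condition.

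Prelid1 lies on chromosome 13 (55320500 to 55325272, plus strand, GRCm38) between 2 genes of the opposite strand that overlap its ends. Rab24, which encodes a small GTPase, shares 1447 bases with it and measured 39.5 and 54.0 FPKM without a call (q = 0.178 in the authors' deposited table). Mxd3, which encodes a MAX-binding repressor, shares 105 bases and measured 19.5 and 13.7 FPKM, also without a call (q = 0.332 in the authors' deposited table). The libraries were stranded, per the labels' protocols, but no source used here says whether counting used the strand. Prelid1 was 5 or more times as abundant as Rab24 in both conditions, and the part of the overlap in its value was not tested.

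Prelid2, the least studied of the family and assigned phosphatidic acid transport in the annotation the authors attached, had the largest change. It went from 4.24 FPKM in normoxia to 37.7 FPKM in hypoxia, 8.91-fold higher, and 149 of 14575 tested measurements (1.02%) had a larger log2 ratio. In normoxia 66.4% of tested measurements had a higher FPKM than Prelid2, in hypoxia 21.2%. Prelid3a, a close relative of Prelid3b, rose 2.17-fold but stayed the lowest of the 10 genes, at 1.84 and 3.995 FPKM. Prelid2 (41875600 to 41951242, minus strand) and Prelid3a (67464866 to 67479835, plus strand) both lie on chromosome 18, far apart from each other.

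Prelid3b (chromosome 2, 174465067 to 174473081, minus strand) encodes the phosphatidylserine carrier and moved the other way. Its level was 69.5 FPKM at 21% oxygen and 26.5 FPKM at 0.5% oxygen, 2.62-fold lower, and 6.63% of tested measurements had a smaller log2 ratio. Atp5e, an ATP synthase subunit gene that starts 961 bases downstream on the same strand, showed no called change (295 and 277 FPKM, q = 0.420 in the authors' deposited table).

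The make-up of the family shifted accordingly. The 4 PRELI genes summed to 275 FPKM in normoxia and 396 FPKM in hypoxia, or 270 and 359 FPKM without Prelid2. Prelid1 supplied 72.5% of the sum in normoxia and 82.8% in hypoxia. Prelid3b went from 25.3% to 6.69% and Prelid2 from 1.54% to 9.52%, while Prelid3a stayed near 1% (0.671% and 1.01%). Prelid2 thus passed Prelid3b: the ratio of Prelid2 to Prelid3b was 0.0610 in normoxia and 1.42 in hypoxia. The ratio of Prelid1 RNA to Prelid3b RNA was 2.86 in normoxia and 12.4 in hypoxia. Such ratios within a condition do not depend on how the libraries were scaled against each other. Without replicate values they have no error of their own. Levels of the carrier proteins were not measured here.

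**Figure D2:**
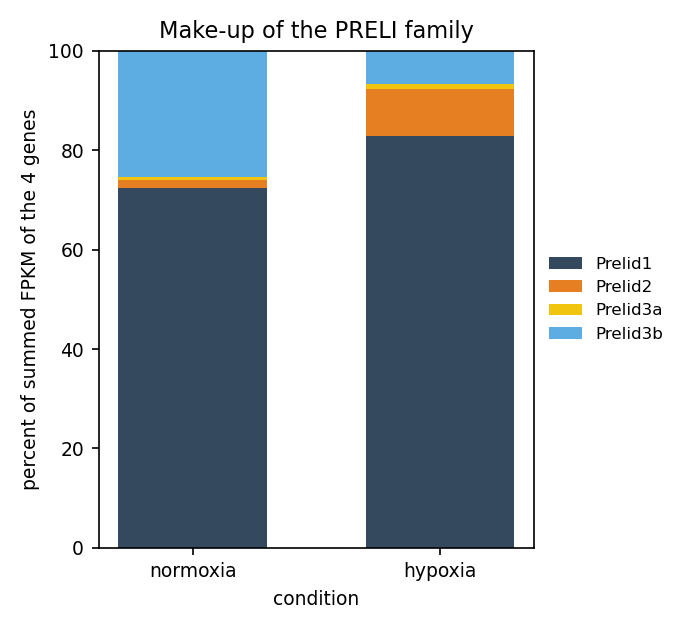
Share of each PRELI gene in the summed FPKM of the 4 genes, in percent, in normoxia and hypoxia. The Prelid3b segment shrinks from 25.3% to 6.69%, the Prelid2 segment grows from 1.54% to 9.52%, and Prelid1 makes up most of both bars.

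Triap1, the gene of the shared partner, gave nearly the same value in both conditions. It measured 17.8 FPKM at 21% oxygen and 18.8 FPKM at 0.5% oxygen, a difference that was not called (q = 0.572 in the authors' deposited table). Its level was thus below those of Prelid1 and Prelid3b in both conditions, and the distance to each moved in opposite directions. Prelid1 was at 11.2 times the level of Triap1 in normoxia and 17.5 times in hypoxia, whereas Prelid3b was at 3.90 times and then 1.41 times. Triap1 (chromosome 5, 115341225 to 115343569, plus strand) is a short gene of 2 exons with 1 annotated transcript.

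Stard7, which encodes the phosphatidylcholine carrier of the START family, rose from 35.0 to 45.8 FPKM, 1.31-fold (chromosome 2, 127270218 to 127298932, plus strand). This is the smallest rise among the called genes of the group, and 29.6% of tested measurements had a larger log2 ratio. Parl, the gene of the protease that cleaves STARD7, fell from 48.6 to 30.6 FPKM (1.59-fold). Yme1l1 was at 46.0 and 48.5 FPKM without a call (q = 0.512 in the authors' deposited table), and Oma1, whose product is a stress-activated inner membrane protease, fell from 4.84 to 1.97 FPKM.

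Among the 3 tested genes for enzymes of cardiolipin synthesis, Tamm41 and Crls1 fell and Pgs1 was not called. Over all tested measurements 28.9% are called higher and 29.0% lower. Tamm41, which makes CDP-diacylglycerol in the inner membrane, measured 27.6 FPKM at 21% oxygen and 21.8 FPKM at 0.5% oxygen, a 1.26-fold fall with the weakest call of the group (q = 0.00862 in the authors' deposited table; chromosome 6, 115004381 to 115037876, minus strand). Pgs1, the next enzyme of the route, was at 21.5 and 20.8 FPKM without a call (q = 0.690 in the authors' deposited table; chromosome 11, 117986292 to 118024011, plus strand). Crls1, the cardiolipin synthase gene, fell from 29.5 to 16.6 FPKM, 1.78-fold, the largest fall of the 3 (chromosome 2, 132846666 to 132866785, plus strand).

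The order of the 3 enzyme genes changed with these falls. In normoxia Crls1 had the highest level and Pgs1 the lowest, and in hypoxia Crls1 was lowest and Tamm41 highest. The ratio of Pgs1 to Crls1 was 0.729 in normoxia and 1.25 in hypoxia, and that of Tamm41 to Crls1 was 0.935 and 1.31. The 3 together summed to 78.6 and 59.2 FPKM. Prelid1, the gene of the phosphatidic acid carrier, was at 6.75 times the RNA level of Crls1 in normoxia and 19.8 times in hypoxia. Ptpmt1, the phosphatase between PGS1 and CRLS1, is listed at 0 in both conditions, which may be a failed estimate, so its level is not known. Of the transcripts that overlap these genes, Gm14104, antisense to the start of Crls1, and Mir6933, within Pgs1, are listed at 0 in both conditions, which may be failed estimates. Dnah17, on the other strand at the end of Pgs1, was at 0.0334 and 0.0180 FPKM.

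Pisd, which encodes phosphatidylserine decarboxylase, has no value of its own. It shares 1 measurement with Prr14l and Gm20671, which spans 32736301 to 32854256 of chromosome 5. That measurement was 27.0 FPKM at 21% oxygen and 26.0 FPKM at 0.5% oxygen, with no call (q = 0.741 in the authors' deposited table). Gm20671 overlaps Pisd over 48417 bases on the same strand, so the level of Pisd alone is uncertain. Pisd also has pseudogenes with which its reads may be mixed. Pisd-ps1 was at 6.68 and 5.93 FPKM without a call (q = 0.326 in the authors' deposited table), and Pisd-ps2 rose from 1.20 to 2.25 FPKM.

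**Figure D3:**
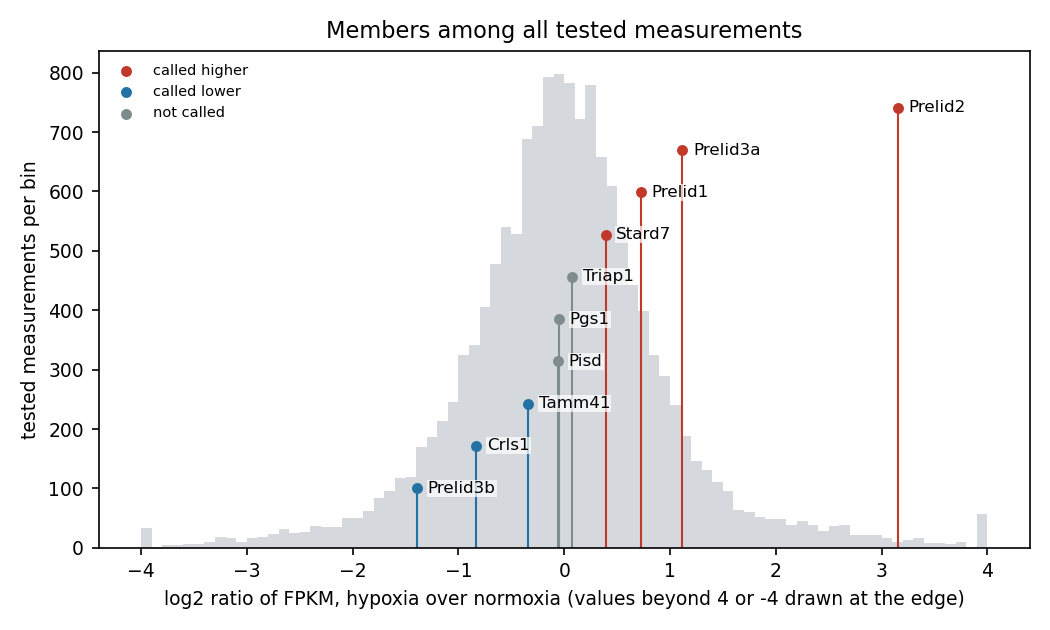
Histogram of the log2 ratio of FPKM, hypoxia over normoxia, for all tested measurements (grey), with the 10 genes marked at their own ratio and coloured by the authors' call. The height of a marker only separates the labels. Prelid2, at 3.15, stands in the right tail, Prelid3b, at -1.39, on the left flank, and Triap1, Pgs1 and Pisd near 0.

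Around this pathway, 8 further lists of genes, also chosen with earlier results of these data known, put these values in context. Over the lists together 35 of 107 tested measurements rose, 35 fell and 37 were not called. That is 65.4% called, against 57.9% of all tested measurements. By direction, 28.9% of all tested measurements are called higher and 29.0% lower, and the counts of each list below stand beside these shares. The lists' medians are given on the scale of log2(FPKM + 1) for members with a mean of at least 1 FPKM, beside 0.0027 for all measurements at that level.

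Genes whose products make or remove phosphatidic acid were divided, with 8 of 21 tested higher, 7 lower and 6 not called (median -0.13). Without the 3 lipin genes, which remove it, 7 of 18 were higher, 7 lower and 4 not called. Lpin1, whose product removes phosphatidic acid by turning it into diacylglycerol, rose from 8.13 to 50.1 FPKM. The diacylglycerol kinase genes, which work in the opposite sense, had 1 rise, 3 falls and 2 without a call among 6 tested. Dgkh rose from 1.23 to 4.45 FPKM. Dgke, Dgkz and Dgkq fell from 4.56 to 2.101, from 39.9 to 19.9 and from 7.06 to 3.88 FPKM, and Dgka and Dgkd were not called. Pld6, for a mitochondrial surface enzyme also called MitoPLD, rose from 0.496 to 1.05 FPKM. Of the 3 tested partners in CDP-diacylglycerol use, Cds2, the synthase of the endoplasmic reticulum, rose from 16.2 to 27.0 FPKM while Cdipt, for phosphatidylinositol synthase, fell from 47.5 to 27.2 FPKM and Cds1 was not called. Cds2 and Tamm41 catalyse the same reaction in different membranes, and they were called in opposite directions.

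Cardiolipin remodelling and turnover had 4 rises, 2 falls and 5 genes without a call among 11 tested (median -0.034). Abhd18, a hydrolase gene linked to cardiolipin breakdown, rose from 2.45 to 21.8 FPKM. Its 8.90-fold change is nearly that of Prelid2 (8.91-fold). Pnpla8, a mitochondrial phospholipase gene, rose 1.72-fold, whereas the phospholipase gene Pla2g6 fell 1.35-fold and the scramblase gene Plscr3 fell from 53.7 to 28.7 FPKM. Taz, which encodes the cardiolipin transacylase tafazzin, was at 22.7 and 21.7 FPKM without a call (q = 0.753 in the authors' deposited table).

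In phosphatidylserine and phosphatidylethanolamine synthesis rises (2) and falls (2) were equal in number among 8 tested genes, and 4 had no call (median 0.14). Ptdss1, which makes phosphatidylserine, the cargo of PRELID3B, fell from 20.5 to 13.9 FPKM, while Ptdss2 was at 23.4 and 26.3 FPKM without a call (q = 0.439 in the authors' deposited table). Pcyt2 and Etnk2, of the CDP-ethanolamine route that makes phosphatidylethanolamine outside mitochondria, rose from 84.8 to 213 FPKM and from 1.09 to 5.66 FPKM. Pemt, which turns this lipid into phosphatidylcholine, fell 1.86-fold.

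Among genes of phosphatidylcholine synthesis and START transfer proteins, the family of STARD7, 6 of 12 tested measurements rose, 2 fell and 4 were not called (median 0.25). Stard4 rose 2.12-fold and Pcyt1b 3.54-fold, and the shared measurement of Chkb and Cpt1b rose from 48.3 to 77.6 FPKM. Pctp, the gene of a phosphatidylcholine transfer protein related to STARD7, fell from 1.65 to 0.483 FPKM, and Pcyt1a fell 1.27-fold.

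Genes of lipid transfer and contacts between the endoplasmic reticulum and mitochondria were evenly split, with 7 of 19 tested higher, 7 lower and 5 not called (median 0.11). The outer membrane channel gene Vdac1 rose from 214 to 512 FPKM, Vapa, which encodes an endoplasmic reticulum tether, from 103 to 219 FPKM, and Atg2b, for a bridge-like lipid transfer protein, from 11.8 to 37.1 FPKM. Miga2, for an outer membrane protein of contact sites, fell from 17.8 to 5.52 FPKM.

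TRIAP1 belongs to the twin CX9C proteins, which the MIA40 pathway traps in the intermembrane space by oxidation. This pathway and its clients had 3 rises, 7 falls and 10 measurements without a call among 20 tested (median -0.14). Over all tested measurements 28.9% are called higher and 29.0% lower. Chchd4, which encodes MIA40 itself, fell from 5.77 to 3.32 FPKM. Coa4, Ndufb7 and Ndufs5, genes of respiratory chain assembly or subunits, fell 2.36-fold, 1.88-fold and 1.60-fold, while Cmc1 rose 1.48-fold and Chchd6 rose from 18.6 to 24.2 FPKM. The list named for inner membrane proteases and scaffolds had 4 rises, 7 falls and 2 genes without a call among 13 tested (median -0.32). It also holds genes of matrix proteases (Lonp1, Clpp and Clpx) and of the intermembrane space (Htra2). Phb and Phb2, which encode the prohibitin scaffold, are among the falls (1.39-fold and 1.29-fold) and were chosen after their values were seen. Htra2, a protease gene of the intermembrane space, fell 2.15-fold, and Lonp1 and Immp2l rose 3.16-fold and 1.66-fold.

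**Figure D4:**
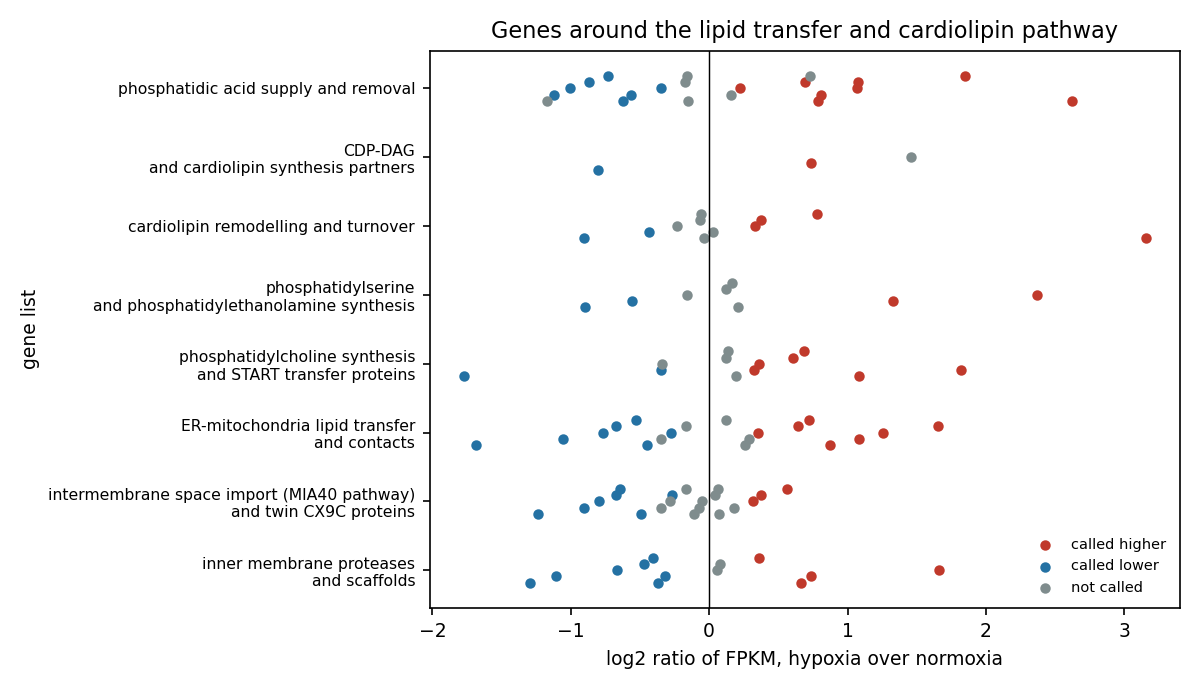
Log2 ratio of FPKM, hypoxia over normoxia, for each tested measurement (points) of 8 gene lists around the pathway, coloured by the authors' call, with small vertical offsets that only separate points. Called genes lie on both sides of 0 in every list, and the rightmost point is Abhd18, which rose 8.90-fold.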

How the data were processed

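RNA was sequenced from 6 samples, 3 per condition, with poly-A selected stranded libraries per the labels' protocols. The build was GRCm38 and the tools were Cuffdiff 2.2.1, Cufflinks, StringTie 1.3.4d and HISAT2 2.1.0, per the submitters' processing notes. The authors deposited 1 table with 1 FPKM per gene and condition. Per the file headers it also holds p-values, q-values, a test statistic (a score, not used) and a log2 fold change of hypoxia over normoxia. No source used here gives the scaling between libraries.

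The 53207 rows were reduced to 51482 measurements by counting repeated rows once, and 14575 are marked as tested. Deposited log2 fold changes of tested measurements equalled the ratios of the FPKM columns to within 1.2e-05. Folds are ratios of deposited FPKM. List medians use log2(FPKM + 1) and a mean of at least 1 FPKM, and the pseudocount understates changes of low genes. The counting and scaling code was tested on simulated data. Coordinates are 1-based, from GENCODE M21 on GRCm38, which holds 99.6% of the identifiers. Promoters are RefSeq's (GRCm38.p6), with 7 of the 10 genes covered. Work was done in Python 3.11.15 with pandas 2.3.3.

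The genes, lists and alternatives were chosen with earlier results of these data known. Named are the 10 genes, genes that overlap them or share their rows, Pisd pseudogenes, Yme1l1, Oma1 and Parl. For each list the 4 largest called changes and up to 2 called changes against the majority were named, or every called one in lists with at most 5. A few members outside this rule (Cds1, Taz, Ptpmt1, Ptdss2, Dgkq, Dgka, Dgkd and Phb with Phb2) were chosen after their values were seen. So was Atp5e. The neighbours Gatc, Srsf9, Trmt6, Lrrn4, Mcm8, Spire1, Afg3l2, Ciao1, Tmem127, Socs3 and AC154172.2 were also named outside this rule. Tafazzin had no row under that symbol and was read as Taz. Afg3l1 and Spg7, and AC122895.1 and Gm43695, which overlap Prelid2 and Pisd, had no row and were not analysed here. Alternatives were a q of 0.01, a 2-fold minimum, unadjusted p, single-gene rows, other filters, a pseudocount of 0.1 and rescaling by the median of ratios.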

Additional observations from a re-analysis of the deposited data

How the results depend on the processing

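No paired analysis was possible because the authors' deposited table holds 1 combined value per condition, and for the same reason no replicate could be left out. With a minimum change of 2-fold the called genes went from 7 to 3 (2 higher, 1 lower), the measurements of the 8 lists from 70 to 21 (13 higher, 8 lower), and all tested measurements from 8446 to 2754 (1316 higher, 1438 lower). That setting calls fewer by construction. A q of 0.01, an unadjusted p below 0.05, single-gene rows and a mean of at least 1 FPKM each left 7 genes called, and a mean of at least 5 FPKM left 6, without Prelid3a. At a q of 0.01 the called measurements of the 8 lists went from 70 to 63, and all called measurements from 8446 to 7101. None of the 30 recomputed log2 ratios of the 10 genes, under both pseudocounts and the rescaling, changed sign. The median of ratios differed between conditions by -0.013 on the log2 scale. The median log2 ratio of the 10 genes lay between -0.047 (mean of at least 5 FPKM) and 0.070 (single-gene rows). Of 32 recomputed list medians 3 moved by over 0.1: phosphatidic acid supply and removal (0.00027) and the inner membrane proteases (-0.13), both at a mean of at least 5 FPKM, and CDP-diacylglycerol partners without a filter (0.24). Depth is unknown, so the precision of low values such as Prelid3a cannot be given.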

Other observations

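The genes next to the 10 were read within 50000 bases on either side, a distance chosen with their values known. Of 23 tested protein-coding neighbours in rows of their own 4 rose, 7 fell and 12 were not called. Over all tested measurements 57.9% are called, 28.9% higher and 29.0% lower. Triap1 and Gatc, which encodes a subunit of the mitochondrial glutamyl-tRNA amidotransferase, start 46 bases apart on opposite strands. Gatc fell from 13.3 to 6.57 FPKM (2.03-fold) beside Triap1 at 17.8 and 18.8 FPKM. The difference between the 2 genes was not tested. Srsf9, a splicing factor gene on the far side of Gatc, fell from 92.3 to 52.2 FPKM.

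Crls1 has falling neighbours on the opposite strand on both sides. Trmt6, a tRNA methyltransferase subunit gene 30610 bases from Crls1, fell from 11.8 to 4.56 FPKM. Lrrn4, which ends 1519 bases beyond Crls1, fell from 51.1 to 5.76 FPKM. Mcm8, which lies between Trmt6 and Crls1, was at 13.4 and 11.7 FPKM without a call (q = 0.0953 in the authors' deposited table). Spire1, an actin nucleator gene 8373 bases beyond Prelid3a on the opposite strand, rose from 8.29 to 31.8 FPKM. Afg3l2, on the other side of Prelid3a, was at 22.2 and 23.1 FPKM without a call. On 1 side of Stard7, Ciao1 rose from 48.2 to 60.2 FPKM and Tmem127 fell from 19.4 to 12.1 FPKM. Socs3, beside Pgs1, rose from 20.5 to 33.6 FPKM. Prelid2 had no tested protein-coding neighbour within 50000 bases. On its strand the pseudogene AC122895.1 overlaps it over 2320 bases, and the long noncoding RNA gene AC154172.2 lies 765 bases beyond its end. Neither had a row. Whether neighbouring transcription contributes to any of these values was not tested.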
